A study of Homo sapiens with 4 samples.

Results

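The DNAJ cochaperones are the genes of the J-domain protein family whose symbols mark them as class A, B or C. They were taken as every row of the deposited count table with a symbol made of DNAJ, the letter A, B or C, a number and an optional letter. This gave 44 of 19381 genes: 4 of class A, 12 of class B and 28 of class C. RNA was sequenced from SK-LMS-1, an established human cell line that the labels call uterine leiomyosarcoma, in 4 libraries. Cells of 2 libraries had been exposed to 2-D08, a flavone compound used to block SUMO conjugation to proteins, at 50 µM for 48 h. Cells of the other 2 libraries were untreated, and the labels name no vehicle for them. Whether the 2 libraries of a group stem from different cultures is not labelled. The p-values therefore weigh a difference against a library spread that could be purely technical. SK-LMS-1 is a single line, so no other line or tumour is covered.

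J proteins recruit HSP70 chaperones to client proteins, and their J domain stimulates the ATP hydrolysis that locks HSP70 onto a client. Nucleotide exchange factors then open HSP70 again and release the client. Class A proteins carry the J domain, a glycine-rich stretch and a zinc-binding domain. Class B proteins lack the zinc-binding part, and class C proteins share only the J domain and use it at particular places such as the ribosome, the mitochondrial import channel or the endosome.

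Library totals were 14796702 and 31300635 counts in the 2-D08 libraries and 29586475 and 16628710 in the untreated ones. In 2-D08 replicate 2 and untreated replicate 1, 87.0% and 87.9% of counts above 20 were even numbers, against 50.3% in 2-D08 replicate 1 and 49.6% in untreated replicate 2. Reads may have been counted more than once in the first pair, which was not tested. Each group holds 1 library of either kind, so ratios within the mostly even pair (2-D08 replicate 2 over untreated replicate 1) and within the other pair (2-D08 replicate 1 over untreated replicate 2) are given beside the main results. Of the smooth muscle markers that define the labelled tissue, DES had 0 counts in every library and MYOCD had 2 and 2 counts with 2-D08 and 0 and 0 without. The summed TPM of 8 smooth muscle markers was 191 and 241 in 2-D08 libraries and 304 and 309 in untreated ones. Of 6 tested 0 were higher and 3 lower. Most of this sum was CALD1, at 168 and 216 TPM with 2-D08 and 258 and 269 TPM without. The sum of 4 epithelial markers was 50.4 and 30.6 TPM with 2-D08 and 107 and 91.7 TPM without, with 0 higher and 2 lower of 3 tested. The epithelial marker CDH1 had 5 and 12 counts with 2-D08 and 0 in both untreated libraries. The 4 leukocyte markers summed to 151 and 174 TPM with 2-D08 and 113 and 110 TPM without, mostly CD68, and both tested ones (CD68 and LCP1) were higher. The 3 endothelial markers together summed to between 0.49 and 0.79 TPM in every library, with 1 of 2 tested higher. That one, PECAM1, had 18 and 40 counts with 2-D08 and 14 and 2 without. It reached the test through its treated libraries, so nothing is read from its call. CDH5, the other tested one, had a log2 fold change of -1.095 and was not called changed. The 4 germ cell markers summed to 1.63 and 2.22 TPM with 2-D08 and 0.85 and 1.09 TPM without, with 0 of 2 tested changed. The part of these markers in the values below was not tested. Fewer cells of a type and less RNA per cell cannot be told apart in such bulk samples.

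After the low-count filter (edgeR's filterByExpr, minimum count 10) 39 of the 44 genes were tested among 12906. Not tested were DNAJB7, DNAJB8, DNAJB13, DNAJC5B and DNAJC5G, genes best known from germ cells. DNAJB7 had 4 and 9 counts with 2-D08 and 12 and 8 without, DNAJB13 2 and 3 with and 0 and 1 without, and DNAJC5B 2 and 6 with and 4 and 0 without. DNAJB8 and DNAJC5G had 0 counts in all 4 libraries. A count of 0 allows up to 0.199 and 0.0972 CPM in the 2-D08 libraries and 0.101 and 0.182 CPM in the untreated ones. This limit of 3 counts covers counting error only. For 2-D08 replicate 2 and untreated replicate 1 it would be higher if reads were counted more than once there.

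Levels of different genes were compared in the deposited TPM, which are scaled for transcript length. DNAJB6, a class B chaperone that suppresses aggregation of polyglutamine proteins, had the highest mean over the 4 libraries. Its TPM were 271 and 283 in 2-D08 libraries and 272 and 267 in untreated ones. The first untreated value lay between the treated ones and the other just below them, so the groups overlapped in TPM. DNAJC8, a class C protein tied to the spliceosome, came next with 217 and 254 TPM under 2-D08 and 188 and 206 TPM in untreated cells. DNAJA1, the main class A partner of cytosolic HSP70, had 239 and 259 TPM under 2-D08 and 133 and 131 TPM in untreated cells. In untreated cells it thus lay well below DNAJB6 and DNAJC8, and in 2-D08 cells its range overlapped that of DNAJC8. DNAJC2 (138 and 168 TPM with 2-D08, 93.7 and 108 without) and DNAJB1 (114 and 109 with, 96.7 and 90.4 without) followed. Their untreated ranges overlapped, while both 2-D08 values of DNAJC2 lay above those of DNAJB1. The lowest tested member was DNAJA4, at 0.81 and 0.68 TPM with 2-D08 and 0.21 and 0.28 TPM without.

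**Figure D1:**
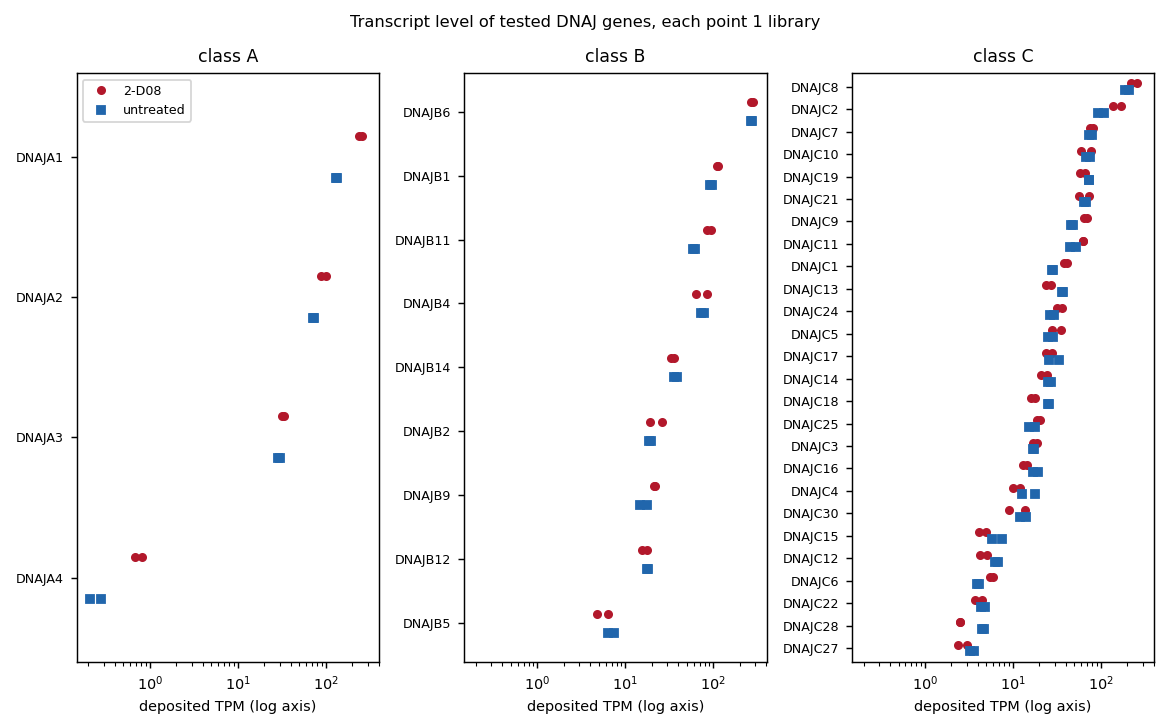
Deposited TPM (log axis) of the 39 tested DNAJ genes, ordered within each class by their mean; red circles are the 2-D08 libraries and blue squares the untreated ones, 2 each. DNAJA1 shows a wide gap, at 239 and 259 TPM against 133 and 131 TPM, while DNAJB6 lies at 271 and 283 TPM against 272 and 267 TPM.

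The class A transcripts took a larger share of the family under 2-D08. Summed TPM of class A was 362 and 391 in 2-D08 libraries and 233 and 235 in untreated ones, a ratio of means of 1.61. Class B summed to 648 and 658 TPM with 2-D08 and 607 and 585 TPM without, and class C to 1037 and 1132 TPM with and 978 and 1001 TPM without, both with a ratio of 1.10. Class A therefore made up 17.7% and 17.9% of the family's TPM in 2-D08 libraries and 12.8% and 12.9% in untreated ones. DNAJA1 alone was 66.0% and 66.1% of class A with 2-D08 and 56.8% and 55.7% without. Without DNAJA1 the class A sum was 123 and 133 TPM with 2-D08 and 101 and 104 TPM without, a ratio of 1.25. All members together held 0.276% and 0.304% of the TPM listed in the 2-D08 libraries and 0.239% and 0.244% in the untreated ones. These sums are given as values without a test.

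**Figure D2:**
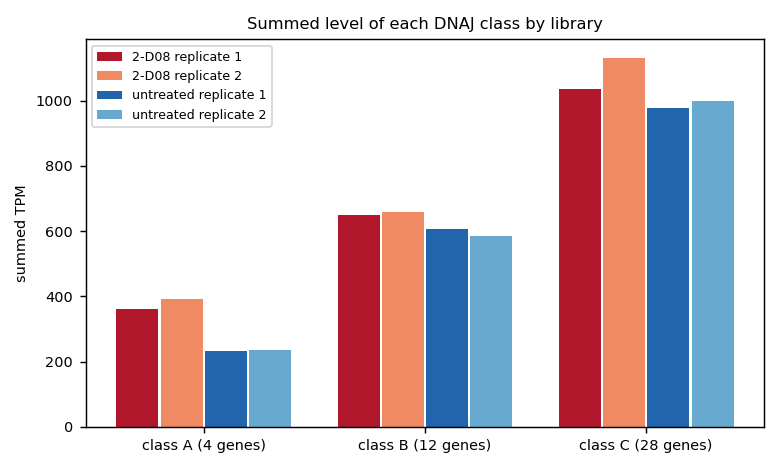
Summed deposited TPM of class A (4 genes), class B (12) and class C (28) in each library, 2-D08 libraries in reds and untreated ones in blues; bars start at 0. The class A bars stand at 362 and 391 TPM with 2-D08 and at 233 and 235 TPM without, and the bars of classes B and C differ by a ratio of 1.10.

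Promoter sequences are shown because HSF1, the heat shock factor, acts on several chaperone genes of this family through a repeated element near their start. RefSeq promoters (GRCh38.p14, 250 bases before to 50 after a gene's start) matched 40 of the 44 members, all but DNAJC1, DNAJC22, DNAJC24 and DNAJC5B. The heat shock element was searched on both strands as the letters GAA, TTC and GAA, or TTC, GAA and TTC, with 2 free bases between each, so that neighbouring matches may overlap. It was in 2 of 40 member promoters, those of DNAJA1 and DNAJB6, and in 0.49% of the 35116 promoters of the table. Only exact matches in these windows were counted, so a gene without one may still hold an imperfect or more distant element. The 30 bases around each member match are given 5′ to 3′ with the matched letters in capitals. A single site of some genes outside the family is added for comparison. HSPA8 holds a further heat shock element at -230 from its start, which is not shown.
DNAJA1: gccgggcgGAACTTTCCAGAAcgctcggtg
DNAJB6: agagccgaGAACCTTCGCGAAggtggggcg
HSPA8: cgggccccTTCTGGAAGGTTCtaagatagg
HSP90AA1: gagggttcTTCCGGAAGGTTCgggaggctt
HSPA5: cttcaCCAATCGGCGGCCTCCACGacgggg
The sites lie at chr9:33025268-33025297 (plus strand, just after the start) for DNAJA1 and chr7:157336865-157336894 (plus strand, 131 bases before the start) for DNAJB6. Those of the other genes, all on the minus strand, are chr11:123062170-123062199 for HSPA8, chr14:102087111-102087140 for HSP90AA1 and chr9:125241385-125241414 for HSPA5. The site of HSPA5 is the endoplasmic reticulum stress element, searched on both strands as CCAAT and CCACG with 9 free bases between. It was in 0 of 40 member promoters and 0.0769% of all. These matches describe letters in these windows and are no evidence of binding.

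The comparison of 2-D08 with untreated cells asked which of these transcripts changed with the compound. It was fitted on the deposited counts of all 12906 genes with edgeR's quasi-likelihood test and TMM factors (two-sided, Benjamini-Hochberg adjusted p under 0.05). The CPM given beside it are counts scaled to library size with these factors. Of the 39 tested members 14 changed (35.9%), close to the 33.9% of all tested genes, so the number of changed members is not itself a result about the family. By direction 10 rose (25.6%) and 4 fell (10.3%), beside 17.1% and 16.9% of all genes. A change of at least 2-fold was called in 6.31% of all genes and in 1 member, DNAJA4. It passed the low-count filter only through its treated libraries, so nothing is read from that call. The 14 changed members and the 10 that rose include DNAJA4, so both shares would be lower without it. The median log2 fold change was 0.09 over the members and 0.00 over all genes. The groups did not overlap in 29 of 39 members (74.4%) and in 67.5% of all tested genes. All 14 changed members kept their sign in both pairs of libraries. Tested on log2(TPM + 1) with limma, the calls of DNAJA2, DNAJA4, DNAJB1, DNAJB9, DNAJC6 and DNAJC16 were lost.

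In class A the abundant cytosolic members DNAJA1 and DNAJA2 rose. The tally of 3 of 4 higher and 0 lower, with a median log2 fold change of 0.70, includes DNAJA4, which passed the filter only through its treated libraries. Among genes averaging at least 5 CPM, which leaves DNAJA4 out, 2 of 3 were higher with a median of 0.42, and on the deposited transformed values the median of all 4 was 0.34. Without untreated replicate 1 only DNAJA1 passed in this class. DNAJA1 (chromosome 9, 33025211 to 33039907, plus strand, GRCh38) had 390 and 443 CPM in 2-D08 libraries and 210 and 212 CPM in untreated ones. Both treated libraries lay far above the untreated pair. Its log2 fold change was 0.98 ± 0.09 (SE, n = 2 libraries per group), a fold of 1.97 (edgeR adjusted p = 5e-06). The log2 ratio was 1.08 within the mostly even pair and 0.88 within the other. DNAJA1 has 6 named pseudogenes, so reads shared with them make its own level uncertain.

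DNAJA2, a close relative of DNAJA1 that also serves cytosolic HSP70 in refolding, had 151 and 173 CPM with 2-D08 and 117 and 124 CPM without. The groups did not overlap, and the log2 fold change was 0.43 ± 0.10 (edgeR adjusted p = 0.00403). The call was lost without untreated replicate 1 (adjusted p = 0.12). DNAJA4, the class A gene of lowest level here, had 14 and 24 counts with 2-D08 and 6 and 6 without, at 0.93 and 0.78 CPM against 0.20 and 0.36 CPM. Its log2 fold change of 1.65 ± 0.59 only just passed (edgeR adjusted p = 0.0443), and it passed the low-count filter through the treated libraries. The call was lost in 13 of the 16 alternative fits that gave it a value, each fit without a library among them (adjusted p up to 0.404). DNAJA3, the mitochondrial class A protein, did not pass at 57.9 and 56.1 CPM with 2-D08 and 50.3 and 47.5 CPM without (0.22 ± 0.10, edgeR adjusted p = 0.111).

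**Figure D3:**
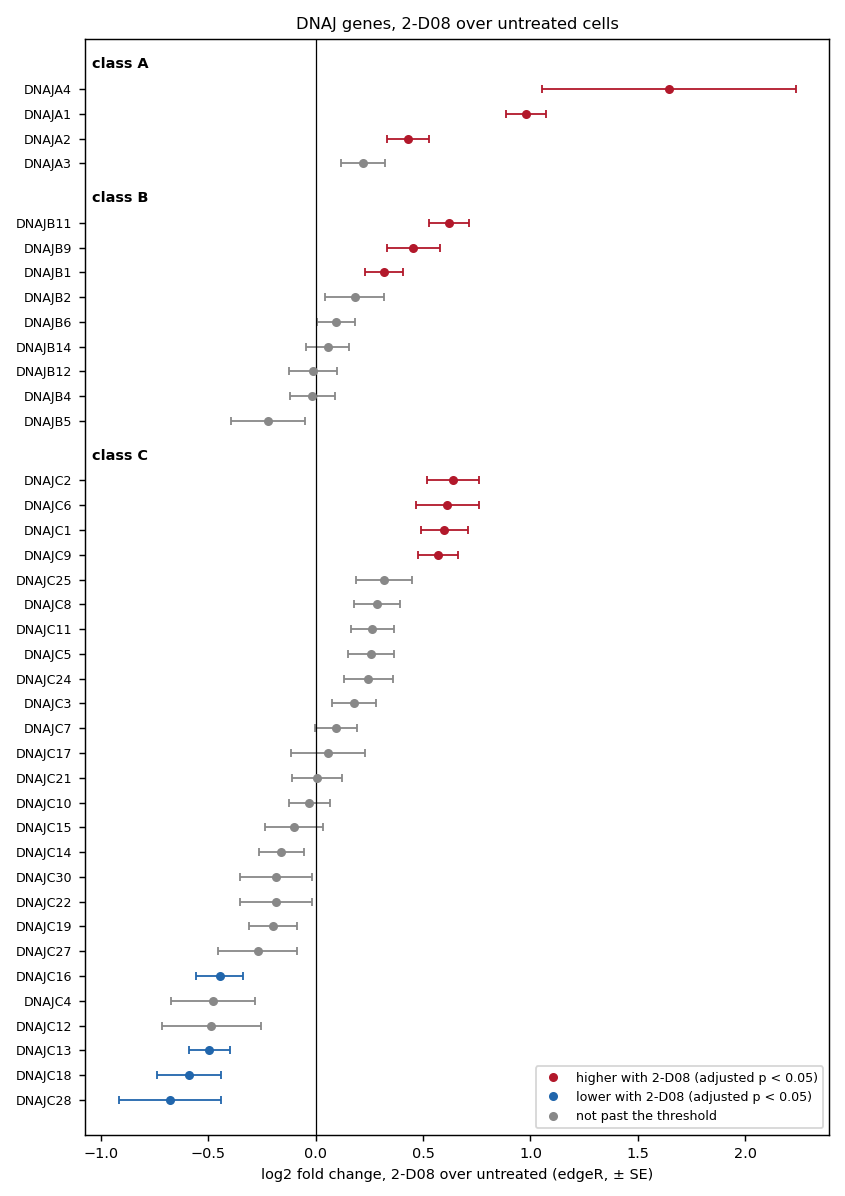
Log2 fold change of 2-D08 over untreated cells with its standard error (edgeR, 2 libraries per group) for the 39 tested DNAJ genes by class; red genes were higher, blue ones lower and grey ones did not pass an adjusted p of 0.05. Coloured points of classes A and B lie right of 0, and class C holds 4 on each side.

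In class B 3 of 9 tested genes were higher and 0 lower, with a median log2 fold change of 0.09. The changed share of 33.3% is near the 33.9% of all tested genes. With either untreated replicate left out, DNAJB11 alone passed in this class. The largest change was that of DNAJB11, a soluble J protein of the endoplasmic reticulum that delivers clients to the HSP70 protein BiP (chromosome 3, 186567403 to 186585800, plus strand). It had 114 and 109 CPM with 2-D08 and 74.1 and 70.7 CPM without. The groups lay apart by far more than either pair spread. The log2 fold change was 0.62 ± 0.09 (edgeR adjusted p = 0.000199), with ratios of 0.56 in the mostly even pair and 0.69 in the other. DNAJB9, the endoplasmic reticulum J protein known for repressing the stress sensor IRE1, had 31.6 and 36.5 CPM with 2-D08 and 25.2 and 24.8 CPM without (0.45 ± 0.12, edgeR adjusted p = 0.0113). Its neighbour THAP5, whose exons cover 6.5% of the exon bases of DNAJB9 on the other strand, was higher as well (0.36, edgeR adjusted p = 0.0163).

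DNAJB1, the classical heat-inducible J protein that starts disaggregation with HSP70, had 164 and 156 CPM with 2-D08 and 128 and 129 CPM without. The groups did not overlap, but the shift was small (0.32 ± 0.09, edgeR adjusted p = 0.0142). Leaving out untreated replicate 1 ended the calls of DNAJB1 (adjusted p = 0.236) and DNAJB9 (0.119), as did leaving out untreated replicate 2 (0.187 for DNAJB1 and 0.106 for DNAJB9). DNAJB1 was also lost when the mostly even libraries were fitted as a block (0.0707).

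The other 6 tested class B genes did not pass. DNAJB6, whose promoter holds the element shown above, had 375 and 382 CPM with 2-D08 and 344 and 366 CPM without (0.09 ± 0.09, edgeR adjusted p = 0.432). DNAJB4, a cytosolic relative of DNAJB1, had 91.3 and 112 CPM with 2-D08 and 101 and 105 CPM without, so its untreated values lay inside the treated range. DNAJB5, a further DNAJB1 relative, had 9.77 and 8.62 CPM with 2-D08 and 10.99 and 10.3 CPM without (-0.22 ± 0.17, edgeR adjusted p = 0.345). DNAJB2, which steers clients of HSP70 to the proteasome, had 34.8 and 26.7 CPM with 2-D08 and 27.6 and 26.2 CPM without, and the groups overlapped. DNAJB12 (-0.01) and DNAJB14 (0.05 on the log2 scale), membrane proteins of the endoplasmic reticulum, were close to 0, and the sign of each differed between settings. The 3 DNAJB1-like genes of the cytosol thus had log2 fold changes of 0.32, -0.02 and -0.22, and the differences among them were not tested.

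Of 26 tested class C genes 4 were higher and 4 lower, with a median log2 fold change of -0.01. These shares, 15.4% each way, are near the 17.1% and 16.9% of all tested genes. The count of changed class C genes was 4 without untreated replicate 1 and 15 without 2-D08 replicate 1. The 4 that rose work at different places. DNAJC2, which sits on the ribosome with the HSP70-like protein HSPA14 and meets nascent chains (chromosome 7, 103312474 to 103344873, minus strand), had 200.1 and 258 CPM with 2-D08 and 135 and 160 CPM without. The treated libraries lay above both untreated ones but differed from each other widely (229 ± 40.9 against 147 ± 17.3 CPM, SD, n = 2 per group). Its log2 fold change was 0.64 ± 0.12 (edgeR adjusted p = 0.00119), with ratios of 0.93 in the mostly even pair and 0.33 in the other. HSPA14 itself, looked up after its values had been seen, was higher too, at 38.6 and 43.2 CPM with 2-D08 and 29.3 and 27.1 CPM without (0.54 ± 0.12, edgeR adjusted p = 0.00309). Leaving out untreated replicate 2 ended that call (adjusted p = 0.0613). DNAJC21, a J protein of ribosome assembly, did not pass, with 91.6 and 121 CPM with 2-D08 and 103 and 109 CPM without. Its fitted value of 0.01 turned sign in 10 of 17 alternatives.

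DNAJC9, a chaperone of histones H3 and H4 (chromosome 10, 73183362 to 73248862, minus strand), had 113 and 108 CPM with 2-D08 and 71.5 and 77.0 CPM without. The groups lay well apart. The log2 fold change was 0.57 ± 0.09 (edgeR adjusted p = 0.000426), with ratios of 0.59 and 0.55 in the mostly even and the other pair. FAM149B1, whose exons cover 24.0% of its exon bases on the other strand, moved the other way (-0.64, edgeR adjusted p = 0.00105). DNAJC1, a membrane J protein of the endoplasmic reticulum with a ribosome-binding part, had 55.4 and 63.5 CPM with 2-D08 and 38.6 and 40.3 CPM without (0.60 ± 0.11, edgeR adjusted p = 0.000956). DNAJC6, auxilin, which strips clathrin from vesicles and is best known from neurons, had 20.5 and 24.2 CPM with 2-D08 and 14.0 and 15.5 CPM without. It rose by 0.61 ± 0.15 on the log2 scale (edgeR adjusted p = 0.00571). Leaving out untreated replicate 1 ended that call (adjusted p = 0.113).

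Of the 4 class C genes that fell, DNAJC13 had the highest mean TPM. It encodes an endosomal J protein that acts in recycling and retrograde sorting (chromosome 3, 132417526 to 132539032, plus strand). It had 137 and 157 CPM with 2-D08 and 207 and 209 CPM without, with no overlap (log2 fold change -0.50 ± 0.10, edgeR adjusted p = 0.00134; -0.40 in the mostly even pair and -0.60 in the other). DNAJC18, placed at the endoplasmic reticulum, had 12.6 and 11.8 CPM with 2-D08 and 19.01 and 17.6 CPM without (-0.59 ± 0.15, edgeR adjusted p = 0.00802). DNAJC16 had 42.5 and 46.2 CPM with 2-D08 and 64.3 and 56.8 CPM without (-0.45 ± 0.11, edgeR adjusted p = 0.00606). Leaving out untreated replicate 1 ended both calls (adjusted p = 0.151 for DNAJC18 and 0.188 for DNAJC16). DNAJC28, a mitochondrial member of low level, had 43 and 90 counts with 2-D08 and 134 and 79 without, at 2.86 and 2.92 CPM against 4.52 and 4.78 CPM. Its log2 fold change was -0.68 ± 0.24 (edgeR adjusted p = 0.0399). The call was lost with DESeq2 (adjusted p = 0.179) and with the block for mostly even libraries (edgeR adjusted p = 0.0771). It was also lost without untreated replicate 1 (-0.72), untreated replicate 2 (-0.65) or 2-D08 replicate 2 (-0.70).

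The other 18 tested class C genes did not pass, with log2 fold changes from -0.49 (DNAJC12) to 0.32 (DNAJC25). DNAJC8 had 237 and 282 CPM with 2-D08 and 198 and 229 CPM without and missed the threshold narrowly (0.28 ± 0.11, edgeR adjusted p = 0.0544). Its ratio was 0.51 in the mostly even pair and 0.05 in the other. DNAJC11, tied to the inner membrane organisation of mitochondria, missed the threshold as well (0.26 ± 0.10, edgeR adjusted p = 0.0549). So did DNAJC5, the cysteine string protein of secretory vesicles (0.26 ± 0.11, edgeR adjusted p = 0.0741). Below 0, DNAJC4 missed it by as little as DNAJC5 (-0.48 ± 0.20, edgeR adjusted p = 0.0737). DNAJC12, a J protein that assists aromatic amino acid hydroxylases, did not pass either (-0.49 ± 0.23, edgeR adjusted p = 0.119). Both had values as low as those of genes that fell, with wider errors. DNAJC7, which carries clients between HSP70 and HSP90, had 87.6 and 98.6 CPM with 2-D08 and 84.9 and 90.1 CPM without, and the groups overlapped. DNAJC3 (0.18) and DNAJC10 (-0.03), soluble J proteins of the endoplasmic reticulum, did not pass either. DNAJC19 (-0.20) and DNAJC15 (-0.10), J proteins of the mitochondrial import motor, were both below 0, and 9 named pseudogenes make DNAJC19 uncertain. DNAJC30 had 24.7 and 17.0 CPM with 2-D08 and 24.8 and 21.6 CPM without, and its ratio was -0.55 in the mostly even pair and 0.19 in the other. The remaining members, DNAJC14, DNAJC17, DNAJC22, DNAJC24 and DNAJC27, lay between -0.27 and 0.24.

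Grouped by place in the cell, 4 of 9 cytosolic HSP70 partners were higher and 0 lower, with a median log2 fold change of 0.18. They were DNAJA1, DNAJA2, DNAJB1 and DNAJA4, the last of which passed the filter only through its treated libraries and lost its call in 13 of 16 alternatives. Of 8 members listed for the endoplasmic reticulum 3 were higher (DNAJB11, DNAJC1 and DNAJB9) and 1 lower (DNAJC18), with a median of 0.12. Of 7 mitochondrial members 0 were higher and 1 lower (DNAJC28), with a median of -0.18. The 3 vesicle and endosome members split, with DNAJC6 higher, DNAJC13 lower and DNAJC5 not past the threshold. Of 3 nuclear members DNAJC9 was higher, and of 2 ribosomal ones DNAJC2 was. The lists left 7 tested members without a place, 0 of them higher and 1 lower (DNAJC16), with a median of -0.19. Each list may therefore be incomplete. Over all tested genes 17.1% were higher and 16.9% lower, with a median of 0.00. With so few members in a group these counts describe single genes. The differences between these groups were not tested.

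**Figure D4:**
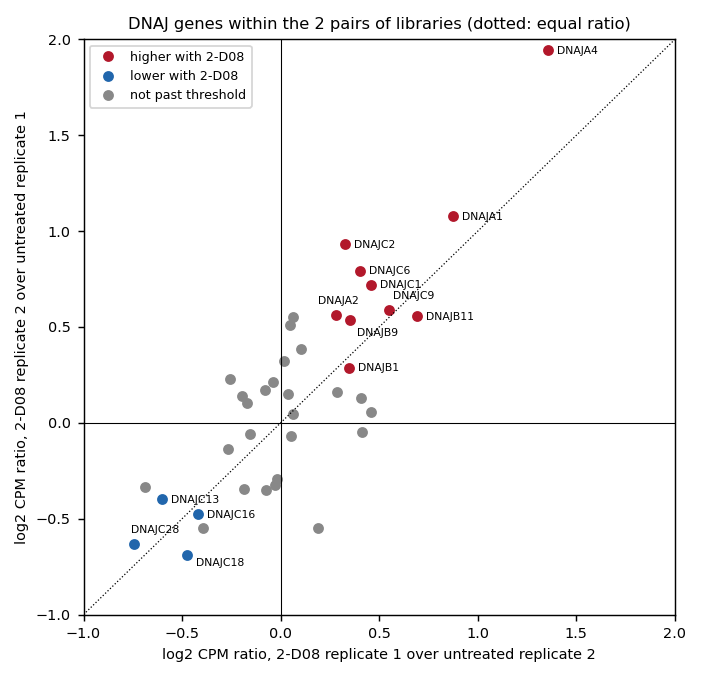
Log2 CPM ratio of each tested DNAJ gene within the mostly even pair (vertical axis, 2-D08 replicate 2 over untreated replicate 1) against that within the other pair (horizontal axis, 2-D08 replicate 1 over untreated replicate 2); the dotted line marks equal ratios. Both ratios of each of the 14 changed genes share a sign, DNAJC2 at 0.93 and 0.33 farther from the line than DNAJC9 at 0.59 and 0.55.

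The proteins that J proteins act on were followed in lists outside the family. Of 11 tested HSP70 genes 6 were higher and 1 lower (63.6% changed), with a median log2 fold change of 0.49. Over all tested genes 33.9% changed, 17.1% higher and 16.9% lower. HSPA6, the strictly inducible HSP70, had 205 and 360 counts (13.6 and 11.7 CPM) in the 2-D08 libraries and 0 counts in both untreated ones. It passed the low-count filter only through its treated libraries, so nothing is read from its call. The tally, the changed share and the median of the HSP70 genes include it, and each would be lower without it. HSPA1B (1.26 ± 0.11) and HSPA1A (1.01 ± 0.12) rose as well, but they are near-identical copies and their separate values are uncertain. HSPA8, the constitutive cytosolic HSP70 and partner of DNAJA1, DNAJA2 and DNAJB1, had 2764 and 2893 CPM with 2-D08 and 2043 and 1998 CPM without (0.49 ± 0.08, edgeR adjusted p = 0.000596). The family's summed TPM was 0.726 and 0.766 of the HSP70 sum with 2-D08 and 0.767 and 0.791 without.

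Nucleotide exchange factors, which end the HSP70 cycle that J proteins begin, included 7 that rose and 1 that fell among 13 tested, with a median of 0.29. The changed share was 61.5%, beside 33.9% of all tested genes. HSPH1, the exchange factor of disaggregation, had 354 and 438 CPM with 2-D08 and 197 and 209 CPM without (0.96 ± 0.11, edgeR adjusted p = 1.72e-05), a shift near that of DNAJA1. GRPEL1, the exchange factor of mitochondrial HSP70, rose by 0.78 ± 0.10, while HSPA9, that HSP70 (0.09 ± 0.09), and DNAJA3, its J protein, did not pass. HSPA4L rose by 0.61 ± 0.11. A list of HSF1 itself (0.10, not past the threshold) and 10 heat shock genes that it drives held 6 that were higher and 1 lower. The changed share was 63.6%, with a median of 0.46 over all 11. CHORDC1 (0.93), HSP90AA1 (0.74) and FKBP4 (0.71), all of the HSP90 system, had the smallest p-values. The lower gene was HSPB1, at 166 and 133 CPM with 2-D08 and 191 and 179 CPM without (-0.31 ± 0.11, edgeR adjusted p = 0.0377). Of the genes in these lists HSPA6, HSPA8, HSP90AA1, CHORDC1, HSP90AB1 and HSPD1 hold an exact match to the heat shock element in their promoter windows. Imperfect or more distant elements of the other genes were not searched. HSP90AB1 (0.23) and HSPD1 (0.25) did not pass.

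Among genes of the endoplasmic reticulum, that of BiP was lower. HSPA5, which encodes BiP, had 800.2 and 856 CPM with 2-D08 and 973 and 1035 CPM without (-0.28 ± 0.09, edgeR adjusted p = 0.0263). Of the 8 J protein genes listed there DNAJB11, DNAJC1 and DNAJB9 rose, DNAJC18 fell and 4 did not pass. The list may be incomplete, and the difference of these genes from HSPA5 was not tested. HYOU1, an exchange factor of BiP, was lower too (-0.31 ± 0.09, edgeR adjusted p = 0.0158). Both calls were lost on log2(TPM + 1), without either untreated replicate and with the block for mostly even libraries (adjusted p of 0.127 for HSPA5 and 0.0865 for HYOU1). HSPA8, HSPA9, HSPA5, HSPB1 and HYOU1 were chosen after their values had been seen. Of 13 genes of the luminal stress response 2 were higher and 2 lower, with a median of -0.03. These shares, 15.4% each way, are near the 17.1% and 16.9% of all tested genes. MANF (0.75 ± 0.11) and ERN1, which encodes IRE1 (0.65 ± 0.10), rose, and HERPUD1 fell (-0.61 ± 0.11). The calls of ERN1 and HSPA4L were lost on log2(TPM + 1). GAK (0.15 ± 0.12), HSCB (0.38 ± 0.17) and SEC63 (0.08 ± 0.11), J-domain genes with other symbols, did not pass.

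**Figure D5:**
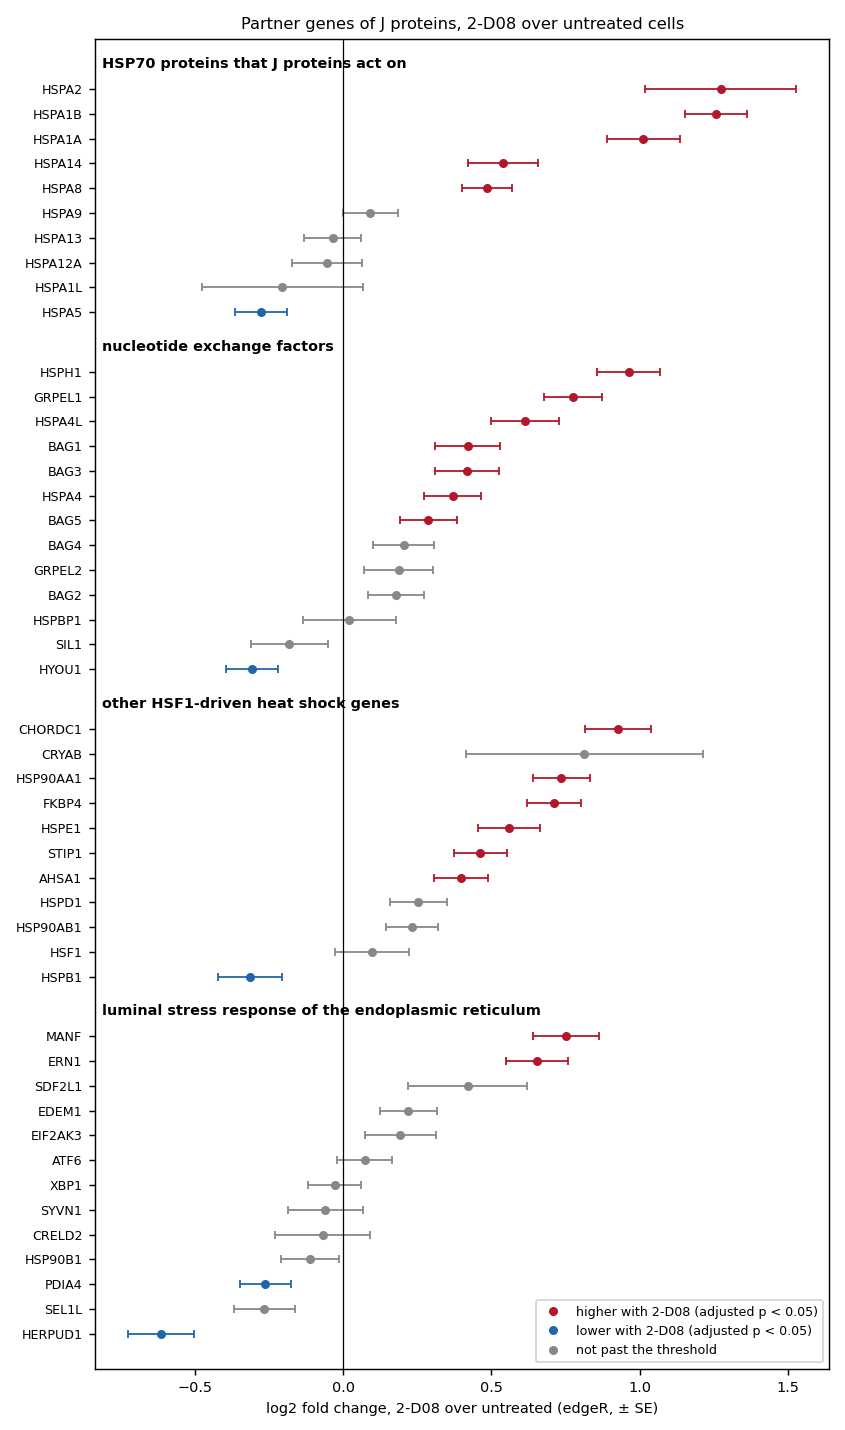
Log2 fold change of 2-D08 over untreated cells with its standard error (edgeR, 2 libraries per group) for tested partner genes in 4 lists, coloured as higher (red), lower (blue) or not past an adjusted p of 0.05 (grey). HSPA6 is left out because both untreated libraries had 0 counts, HSPH1 stands at 0.96, and HSPA5 (-0.28) and HYOU1 (-0.31) lie left of 0.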

How the data were processed

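RNA sequencing of 4 SK-LMS-1 libraries was used. Reads had been processed with STAR 2.7.8a and cutadapt 3.4 on GRCh38, with DESeq2 also named, per the submitters' processing notes. How reads were counted, with or without strand and on which annotation, is not given in the sources used here. Deposited by the authors were whole-number read counts per gene, TPM values, and a table on a log2-like scale, which served only for an alternative. The count test used edgeR 4.0.16 under R 4.3.3: filterByExpr (minimum count 10), TMM factors and the quasi-likelihood test (robust, two-sided) over 12906 genes, with Benjamini-Hochberg adjustment and a threshold of 0.05. Alternatives also used DESeq2 1.42.0 and limma 3.58.1. Standard errors were derived from the F statistic. CPM of all genes use the same TMM-scaled library sizes. Scripts were tested on simulated data. Members matched GENCODE release 29 for positions in 44 of 44 cases; that release can differ from the authors'.

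Members and lists were chosen with earlier results of these data known. Values in every library were given for changed members with an absolute log2 fold change of at least 0.5 and the 2 members of highest mean TPM in each class, with values of further members added after they were seen. From partner lists up to 3 changed genes with the smallest p and a mean of at least 1 CPM were named; 1 gene of a partner list is not reported here. The alternatives were other scaling, filters and tools, TPM with a pseudocount of 1 or 0.1, thinned and halved counts, the replicate number as a block, each library left out and, chosen after seeing the data, a block for mostly even libraries.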

Additional observations from a re-analysis of the deposited data

How the results depend on the processing

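Of the 14 changed members 6 (DNAJA1, DNAJB11, DNAJC1, DNAJC2, DNAJC9 and DNAJC13) stayed past the threshold in all 17 alternatives, and 0 of the 14 turned sign. Of 25 members not past it, 11 passed in at least 1 alternative. On the log2(TPM + 1) and log2(TPM + 0.1) scales, limma called 1598 and 1608 genes and 1 member each of classes A and B; the cause was not tested. Over the fits without a library, which take the lone library to vary like the other group, the count of changed genes ran from 1866 to 6077, of class A from 1 to 2, of class B from 1 to 4 and of class C from 4 to 15; the lowest values came without untreated replicate 1, and for class B also without untreated replicate 2, where 2695 genes changed. The highest for all genes and class C came without 2-D08 replicate 1. No label says that equal replicate numbers mark a pairing, and across 12906 genes the replicate 1 deviations of both groups correlated at 0.157. A replicate block gave 6239 changed genes and 14 changed class C members. Of the members that did not pass, DNAJC21 turned sign without a low-count filter (-0.003458), among genes averaging at least 5 CPM (-0.001071), with DESeq2 (-0.0006027), on the TPM scales (-0.02965 and -0.03024), with the transformed values (-0.01691), the replicate block (-0.01133) and the block for mostly even libraries (-0.009181). DNAJB14 (-0.11 and -0.12) and DNAJC17 (-0.18 and -0.18) did so on the TPM scales and DNAJB12 with thinned counts (0.01303). Over the fits without a library, values ran from -0.22 to 0.18 for DNAJC21, -0.18 to 0.12 for DNAJB4, -0.14 to 0.05772 for DNAJC10, -0.01476 to 0.37 for DNAJB2, -0.07957 to 0.0545 for DNAJB12, -0.07076 to 0.16 for DNAJB14, -0.46 to 0.07225 for DNAJC30, -0.001508 to 0.17 for DNAJC7 and -0.01395 to 0.18 for HSPA9. Depth limits DNAJA4, where 6 and 6 untreated counts stand behind the fold.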

Other observations

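DNAJC25 shares 13.8% of its exon bases with the read-through gene DNAJC25-GNG10 on the same strand, so reads could be split between them. DNAJC25 had 31.8 and 37.1 CPM with 2-D08 and 25.3 and 30.4 CPM without (0.32 ± 0.13, edgeR adjusted p = 0.0754). The read-through gene averaged 13.9 CPM with 2-D08 and 18.8 CPM without (-0.42, edgeR adjusted p = 0.0477). Exons of 16 of the 44 members share bases with another gene of the count table. PMPCB, whose exons cover 9.6% of the exon bases of DNAJC2 on the other strand, was lower (-0.26, edgeR adjusted p = 0.0389), while DNAJC2 was higher. TECR, which covers 5.7% of DNAJB1, and TBCCD1, which covers 6.6% of DNAJB11, did not pass (-0.09 and 0.21).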
